A study of Homo sapiens with 9 samples.

Results

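The genes described here carry glucose into cells and through glycolysis to pyruvate and lactate, with the enzymes that set the pace of the pathway and the kinases that keep pyruvate out of the mitochondria. The 37 genes were chosen by name, with earlier results of these data known. Each was read on the probe set that the array annotation assigns to it alone, taking the brightest where a gene had several. A probe set of this kind was found for 34 of the 37 genes, out of 18417 named genes on the array. PGAM1 is measured only on probe sets shared with PGAM4, and SLC16A1 and SLC16A3, carriers of lactate across the plasma membrane, are not analysed here.

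Expression was measured on GeneChip Human Gene 1.0 ST arrays in the steroid-making line NCI-H295R, which comes from a human carcinoma of the adrenal cortex. Cells grew for 24 h in growth medium and then spent 48 h in serum-free medium with 10 mM metformin (starvation with metformin), in serum-free medium alone (starvation) or in growth medium (normal growth), with 3 arrays, A to C, in each group. By the study's methods the growth medium held serum and a supplement of insulin, transferrin and selenium, and the starvation medium held neither. For the arrays with metformin the labels give serum-free medium only. No second line was tested, and all groups shared the first 24 h of growth. The arrays with metformin are known from the labels alone, and no source calls them separate cultures, so p values that use them may rest on technical spread alone.

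In glycolysis, glucose enters through transporters, is trapped by hexokinase, passes the committed step at phosphofructokinase and is split and oxidised to pyruvate, which lactate dehydrogenase reduces to lactate. Many steps are served by several isozymes encoded by different genes, some found mainly in muscle or nerve and others in nearly every cell. Metformin is known to inhibit complex I of the respiratory chain, and cells with impaired respiration rely more on glycolysis for ATP.

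Each value below is a log2 expression value from RMA (robust multi-array average), so a difference of 1 is a 2-fold difference, and levels are not ranked between probe sets. Groups were compared with limma over all 33297 probe sets, with Benjamini-Hochberg adjusted p values, and a gene is said to have risen or fallen at an adjusted p under 0.05. The 3 comparisons share arrays with one another and are given side by side. Array medians lay between 6.04 and 6.16, PFKFB1 and FBP1 were below the median of every array, and arrays of one group correlated at 0.9903 or more over all probe sets. Among the cells' own markers, STAR, CYP11A1, CYP17A1 and NR5A1 averaged 11.6, 11.8, 11.4 and 10.7 over the 9 arrays. Of the 12 measured adrenocortical markers 9 averaged above the lowest array median, and CYP11B1, CYP11B2 and MC2R did not. The mean of 12 adrenocortical markers was 8.64 to 8.87 on the arrays with metformin, 8.85 to 8.92 under starvation and 9.12 to 9.22 under normal growth, and its part in the results below was not tested. With metformin against starvation 1 of these 12 rose, MC2R, and 3 fell, NR5A1, HSD3B2 and SULT2A1, beside 3.14% and 2.89% of named genes. With metformin against normal growth 1 rose and 5 fell, beside 6.15% and 6.36% of named genes. For starvation against normal growth 0 rose and 1 fell, HSD3B2, beside 0.228% of named genes in either direction. Of the fibroblast, endothelial, immune and adrenal medulla markers 3 of 10, 1 of 8, 1 of 7 and 2 of 7 lay above the lowest array median. Of these genes 0 passed limma's adjusted test in any comparison, and at an unadjusted p under 0.05 there were 1 to 2 in a comparison. Of named genes 6.03% passed the adjusted test with metformin against starvation, 0.228% for starvation against normal growth and 12.5% with metformin against normal growth. The unadjusted shares were, in the same order, 23.6%, 9.88% and 28.5%. Most of these markers were dim, and a change on dim probe sets could be missed.

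Among the 34 measured genes, metformin in starved cells was accompanied by a rise of 7 and a fall of 0 against starvation alone. The 7 were the enolases ENO3 and ENO2, PFKFB2, the aldolase ALDOC, the glucose transporter SLC2A4 and the phosphofructokinase subunits PFKP and PFKM, with rises of 1.26-fold to 2.49-fold. They made up 20.6% of the measured genes, whereas 6.03% of named genes and 4.28% of probe sets passed in either direction. Of named genes 3.14% passed as higher and 2.89% as lower. The list was drawn up with earlier results of these data known, so this and the later shares of the 34 are descriptive only. The median log2 change of the 34 genes was 0.0013, beside -0.03 over all named genes. At 1.5-fold or more, 5 of the 7 passed, beside 1.19% of named genes, and only ENO3 reached 2-fold, beside 0.179% of named genes. An RNA change per cell and a change in the mix of cells cannot be told apart in such bulk samples. With 1 array left out, 0 of the 34 passed in the fits without metformin array A or without any one of the 3 starvation arrays, in which no probe set on the array passed, and the adjusted p of the 7 genes then lay between 0.0525 and 0.147. Without metformin array B 5 passed, and without metformin array C 6 passed.

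**Figure D1:**
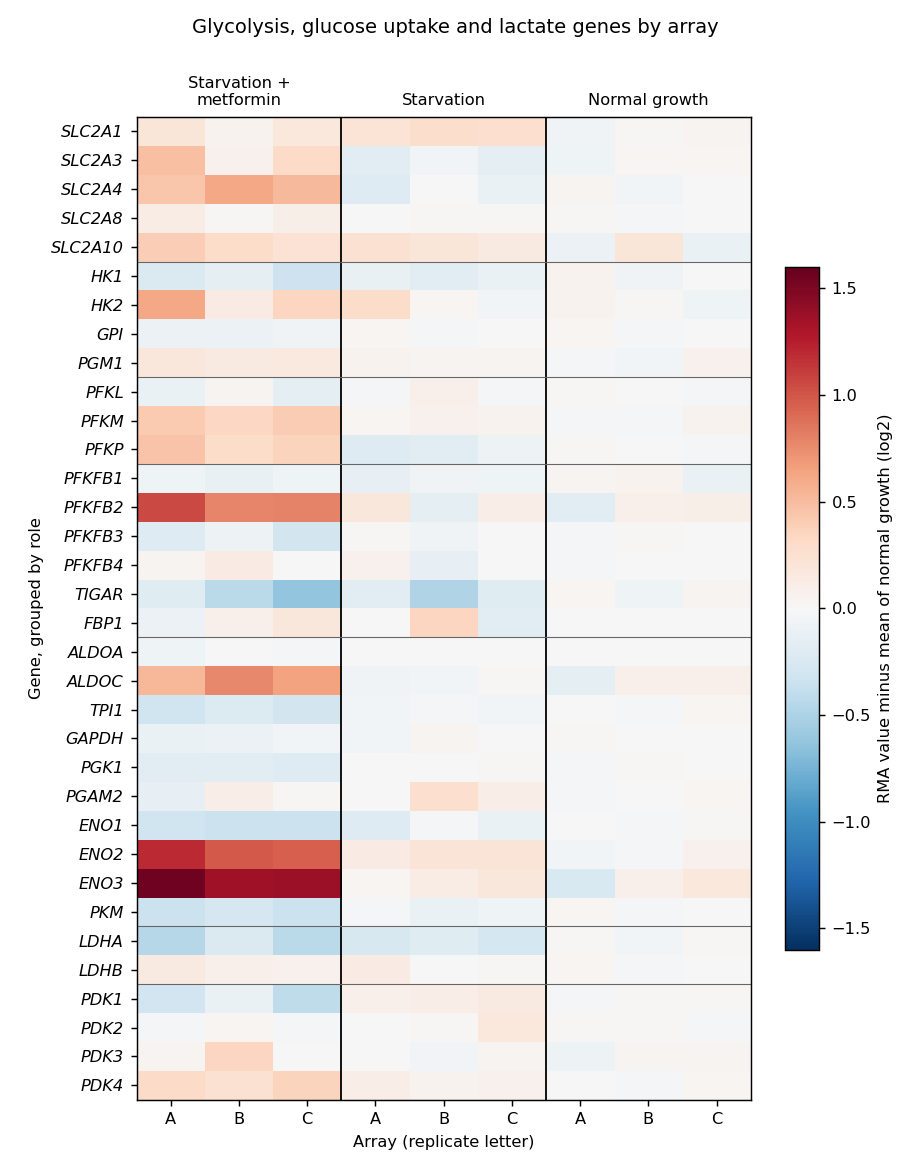
Values of the 34 measured genes (rows, grouped by role) on the 9 arrays (columns), as the RMA log2 value minus the gene's mean under normal growth. The 3 arrays with metformin are dark red for ENO3 and ENO2 and red for PFKFB2 and ALDOC, and blue for ENO1, TPI1, PKM and LDHA.

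The enolases, which convert 2-phosphoglycerate to phosphoenolpyruvate, differed from one another. ENO3, the form typical of skeletal muscle, had values of 7.54, 7.33 and 7.35 on arrays A to C with metformin, against 6.01, 6.10 and 6.16 under starvation and 5.73, 6.06 and 6.15 under normal growth. All arrays with metformin stood above the other 6, and starvation and normal growth overlapped. ENO3 was 2.49-fold higher with metformin than under starvation (log2 change 1.32, SE 0.08, limma adjusted p = 0.0118), the largest change among the 34 genes. ENO2, the form typical of neurons and neuroendocrine cells, had values of 8.26, 8.04 and 8.02 with metformin, 7.20, 7.26 and 7.27 under starvation and 7.02, 7.03 and 7.14 under normal growth. It rose by 0.86 with metformin against starvation (SE 0.08, limma adjusted p = 0.0145). ENO1, the enolase of most tissues, was lowest with metformin, with values of 11.16, 11.14 and 11.14 with metformin, 11.28, 11.46 and 11.37 under starvation and 11.47, 11.47 and 11.50 under normal growth. The arrays with metformin lay below all others, but the change against starvation missed the test (log2 change -0.22, SE 0.06, limma adjusted p = 0.125).

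The DNA before the enolase genes is shown because these 3 genes for one reaction differed in their values. Each window runs from 250 bases before to 50 bases after a RefSeq transcription start, 300 bases in GRCh38.p14, written 5′ to 3′ on the gene's strand. Capitals mark matches on either strand to ACGTG, the core of sites for hypoxia-inducible factors and, as CACGTG, for MYC-type factors, and to AAGGTCA, the half-site of NR5A1 and of the oestrogen-related receptors. The windows are ENO3 at chr17:4950869-4951168 (plus strand), ENO2 at chr12:6914330-6914629 (plus strand) and ENO1 at chr1:8878637-8878936 (minus strand).
ENO3: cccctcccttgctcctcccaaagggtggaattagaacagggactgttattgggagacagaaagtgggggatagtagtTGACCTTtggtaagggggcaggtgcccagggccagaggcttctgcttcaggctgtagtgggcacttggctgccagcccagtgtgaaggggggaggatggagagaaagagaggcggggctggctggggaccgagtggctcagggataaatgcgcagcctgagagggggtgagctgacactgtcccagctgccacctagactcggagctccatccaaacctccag
ENO2: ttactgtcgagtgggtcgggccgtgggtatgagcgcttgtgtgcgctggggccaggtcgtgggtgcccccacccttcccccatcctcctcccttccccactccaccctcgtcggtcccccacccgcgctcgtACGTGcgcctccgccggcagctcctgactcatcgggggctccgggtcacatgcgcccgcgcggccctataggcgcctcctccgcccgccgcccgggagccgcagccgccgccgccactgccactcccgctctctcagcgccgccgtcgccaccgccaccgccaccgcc
ENO1: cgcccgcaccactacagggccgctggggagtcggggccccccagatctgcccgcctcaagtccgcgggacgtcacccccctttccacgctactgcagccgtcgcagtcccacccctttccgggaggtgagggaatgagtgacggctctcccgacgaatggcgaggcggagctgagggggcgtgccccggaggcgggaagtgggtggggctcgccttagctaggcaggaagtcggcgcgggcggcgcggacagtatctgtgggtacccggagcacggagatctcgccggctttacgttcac
The ENO3 window held AAGGTCA on the minus strand, read as TGACCTT above, the ENO2 window held ACGTG, and the ENO1 window held none of these letters. ENO3 has a further window at chr17:4950302-4950601, which held none either. A match is a run of letters and not a measured binding site.

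The aldolases, which split fructose 1,6-bisphosphate into trioses, also differed from each other. ALDOC, the form typical of brain, had values of 11.33, 11.57 and 11.43 with metformin, 10.73, 10.75 and 10.82 under starvation and 10.63, 10.88 and 10.87 under normal growth. Starvation and normal growth overlapped, and the arrays with metformin stood above both. The rise against starvation was 0.67 (SE 0.08, limma adjusted p = 0.0174). ALDOA, the widely expressed form, lay between 10.00 and 10.08 on all 9 arrays, and its change with metformin against starvation was -0.02 (95% interval -0.15 to 0.10). The ALDOC window at chr17:28576846-28577145 (minus strand, GRCh38.p14) is shown because it held both of the sequences marked in the enolase windows.
ALDOC: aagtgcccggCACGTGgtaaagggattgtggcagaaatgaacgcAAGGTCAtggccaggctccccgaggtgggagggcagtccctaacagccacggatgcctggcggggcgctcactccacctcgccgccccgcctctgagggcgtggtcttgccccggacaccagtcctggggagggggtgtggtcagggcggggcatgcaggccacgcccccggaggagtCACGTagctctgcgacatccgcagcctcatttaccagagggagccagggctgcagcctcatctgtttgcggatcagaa
The capitals are, in order, the longer ACGTG form, the receptor half-site and an ACGTG on the minus strand, and the longer form counts for both searches.

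Matches were counted in all 35116 windows of the RefSeq promoter table, on both strands, and a gene with several windows counted if any of them matched. Of the 37 genes 33 had a window, among them 5 of the 7 that rose, ALDOC, ENO2, ENO3, PFKM and PFKP. These 33 had 65 windows, and the table had 35116 windows for 27305 genes. The 33 thus had more windows per gene in which to match, which raises their counts beside the shares of genes. AAGGTCA was found in 3.92% of windows and 4.8% of genes in the table, and in 5 of the 33, which were ALDOC, ENO3, PFKM, PFKP and TPI1. PFKM has 7 windows and PFKP 4, and in each of these genes 1 window matched, while ENO2 had no match. ACGTG was found in 21.4% of windows and 24.9% of genes, and in 19 of the 33, including ALDOC, ENO2, PFKM and PFKP. CACGTG was in 7.26% of windows and 8.77% of genes, and in 7 of the 33, and among the genes that rose only ALDOC had it. TGATGNAA, letters of the ATF4 and C/EBP composite site, was in 3.62% of windows and 4.46% of genes, and in 1 of the 33, HK1. TGACGTCA, the cyclic AMP response element, was in 1.85% of windows and 2.25% of genes, and in 1 of the 33, LDHA. GGGCGG, the GC box, was in 45.0% of windows and 48.3% of genes, and in 30 of the 33. TATAAA was in 11.5% of windows and 14.0% of genes, and in 5 of the 33.

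Phosphofructokinase forms fructose 1,6-bisphosphate, the committed step, from subunits of 3 genes. PFKP, the platelet subunit, had values of 9.71, 9.55 and 9.61 with metformin, 9.05, 9.06 and 9.16 under starvation and 9.27, 9.24 and 9.24 under normal growth. The 3 groups did not overlap, with starvation lowest. PFKP rose by 0.53 with metformin against starvation (SE 0.07, limma adjusted p = 0.0212). PFKM, the muscle subunit, had values of 10.35, 10.27 and 10.34 with metformin, 9.97, 10.01 and 9.99 under starvation and 9.92, 9.90 and 9.99 under normal growth. The arrays with metformin were above the other 6, and PFKM rose by 0.33 against starvation (SE 0.05, limma adjusted p = 0.0321). This call was lost when every array was set to a common median (adjusted p = 0.0893). PFKL, the liver subunit, overlapped in all groups and differed by -0.09 with metformin against starvation (95% interval -0.28 to 0.09).

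The PFKFB enzymes make and break fructose 2,6-bisphosphate, the strongest allosteric activator of phosphofructokinase. PFKFB2, the form typical of heart, had values of 7.67, 7.39 and 7.40 with metformin, 6.80, 6.45 and 6.71 under starvation and 6.44, 6.69 and 6.71 under normal growth. The arrays with metformin stood apart, and those of the other groups were interleaved. PFKFB2 rose by 0.84 with metformin against starvation (SE 0.12, limma adjusted p = 0.027), a call that Student's t-test with the same adjustment did not make (adjusted p = 0.0802). PFKFB3, an inducible form with high kinase activity, had values of 8.13, 8.26 and 8.04 with metformin, 8.36, 8.29 and 8.35 under starvation and 8.32, 8.36 and 8.34 under normal growth. All arrays with metformin were lowest, and the change against starvation was -0.19 (SE 0.07, limma adjusted p = 0.228). PFKFB4 and PFKFB1 differed by 0.08 and 0.00 with metformin against starvation, with overlapping groups. TIGAR, a phosphatase that lowers fructose 2,6-bisphosphate, and FBP1, the gluconeogenic phosphatase of fructose 1,6-bisphosphate, also overlapped, with changes of -0.13 (adjusted p = 0.666) and 0.00 (adjusted p = 0.997).

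**Figure D2:**
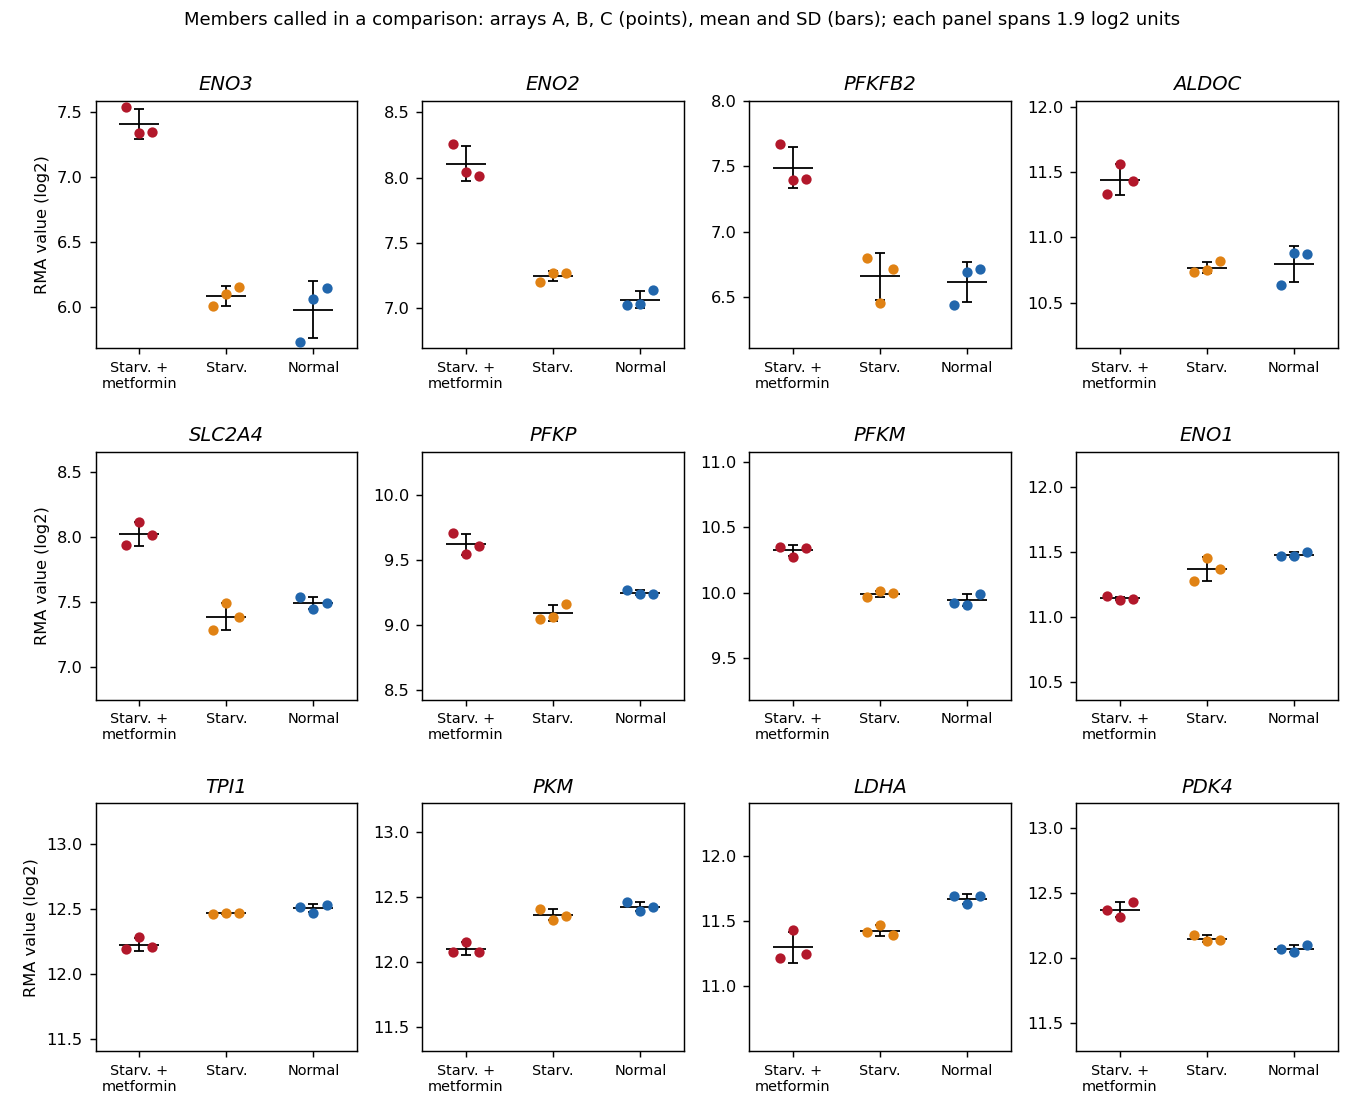
RMA log2 values of the 12 genes that passed an adjusted p of 0.05 in a comparison, for arrays A to C (points) with mean and SD (bars), in starvation with metformin, starvation and normal growth from left to right. The first 7 panels show the genes that rose with metformin against starvation, and all panels span 1.9 log2 units.

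Glucose uptake runs through the SLC2A family. SLC2A4, the insulin-responsive transporter of muscle and fat, had values of 7.94, 8.12 and 8.02 with metformin, 7.29, 7.50 and 7.39 under starvation and 7.54, 7.45 and 7.50 under normal growth. The arrays with metformin were highest and the other 2 groups overlapped. SLC2A4 rose by 0.63 with metformin against starvation (SE 0.08, limma adjusted p = 0.0208), a call that Student's t-test did not make (adjusted p = 0.0551). SLC2A1, the transporter of basal uptake in most cells, had values of 11.52, 11.39 and 11.49 with metformin, 11.54, 11.61 and 11.60 under starvation and 11.27, 11.34 and 11.37 under normal growth. All 3 groups were separate, with starvation highest. Neither the difference of -0.11 with metformin against starvation (SE 0.06, limma adjusted p = 0.363) nor that of 0.25 for starvation against normal growth (SE 0.05, limma adjusted p = 0.182) passed. SLC2A3, a high-affinity transporter, had values of 9.66, 9.25 and 9.49 with metformin, 9.01, 9.14 and 9.02 under starvation and 9.11, 9.22 and 9.21 under normal growth. It was highest on all arrays with metformin but varied most there (log2 change against starvation 0.41, SE 0.11, limma adjusted p = 0.117), and RNA of its near-identical paralog SLC2A14 may bind its probes. SLC2A8 and SLC2A10, transporters of internal membranes, differed by 0.07 and 0.11 with metformin against starvation and did not pass.

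Hexokinases phosphorylate glucose. HK2, the inducible form, had values of 7.95, 7.46 and 7.67 with metformin, 7.62, 7.37 and 7.29 under starvation and 7.39, 7.35 and 7.26 under normal growth. The groups with and without metformin under starvation overlapped, and the change was 0.27 (SE 0.15, limma adjusted p = 0.401). HK1, the constitutive form, differed by -0.10 (adjusted p = 0.47). GPI, which isomerises glucose 6-phosphate, and PGM1, which links it to glycogen, differed by -0.08 (adjusted p = 0.463) and 0.11 (adjusted p = 0.267), each without overlap of the groups.

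Of the 10 measured genes from aldolase to pyruvate kinase, 3 rose in limma with metformin against starvation, ALDOC, ENO2 and ENO3, and 0 fell. Of named genes 3.14% rose and 2.89% fell. At an unadjusted p under 0.05 in limma there were 7 of the 10, beside 23.6% of named genes. These 10 are part of the 34. TPI1, which interconverts the trioses, had values of 12.19, 12.28 and 12.21 with metformin, 12.46, 12.47 and 12.47 under starvation and 12.51, 12.47 and 12.53 under normal growth (log2 change against starvation -0.24, SE 0.05, limma adjusted p = 0.0713). PKM, the pyruvate kinase of most tissues, had values of 12.08, 12.16 and 12.08 with metformin, 12.41, 12.33 and 12.36 under starvation and 12.46, 12.39 and 12.42 under normal growth (log2 change against starvation -0.26, SE 0.06, limma adjusted p = 0.0662). For both genes every array with metformin was below every other array. PGK1, which makes the first ATP of the pathway, differed by -0.19 (SE 0.05, limma adjusted p = 0.105), and its groups did not overlap. The probe sets shared by PGAM1 and PGAM4, phosphoglycerate mutases, numbered 5, of which 2 had the same values. Their changes with metformin against starvation lay between -0.27 and -0.28 (limma adjusted p = 0.0574 to 0.0707). GAPDH, which oxidises glyceraldehyde 3-phosphate and is a common reference gene, had values of 13.14, 13.15 and 13.21 with metformin, 13.20, 13.30 and 13.25 under starvation and 13.26, 13.24 and 13.24 under normal growth. Metformin and starvation overlapped, and the change was -0.09 (SE 0.06, 95% interval -0.22 to 0.05, limma adjusted p = 0.472). PGAM2, the muscle mutase, differed by -0.13 (95% interval -0.37 to 0.11).

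The change of a gene can be set against the change of its paralog by taking their difference within each array, which removes what both share on that array. The probe sets' own levels cancel when these differences are compared between groups. The pairs were chosen after their values were seen and so have no test. ENO3 minus ENO1 shifted by 1.54 with metformin against starvation, ENO2 minus ENO1 by 1.09 and PFKFB2 minus PFKFB3 by 1.02. The shift was 0.75 for SLC2A4 minus SLC2A1, 0.70 for ALDOC minus ALDOA, 0.62 for PFKP minus PFKL and 0.43 for PFKM minus PFKL. In each of these 7 pairs the arrays with metformin lay apart from those of starvation. For LDHB minus LDHA the shift was 0.18 and the groups overlapped.

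At the end of the pathway, lactate dehydrogenase is built from LDHA, the subunit typical of lactate-forming tissues, and LDHB, typical of heart. LDHA had values of 11.21, 11.43 and 11.24 with metformin, 11.42, 11.47 and 11.39 under starvation and 11.69, 11.63 and 11.69 under normal growth. Every array of normal growth was above every array without serum, and the groups with and without metformin overlapped. LDHA differed by -0.13 with metformin against starvation (SE 0.08, limma adjusted p = 0.429) and by -0.24 for starvation against normal growth (SE 0.05, limma adjusted p = 0.187). LDHB lay between 12.64 and 12.82 on all arrays and passed in no comparison.

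The pyruvate dehydrogenase kinases switch off the complex that feeds pyruvate into the citric acid cycle. PDK4, the form induced by fasting in many tissues, had values of 12.37, 12.31 and 12.43 with metformin, 12.18, 12.13 and 12.14 under starvation and 12.07, 12.05 and 12.10 under normal growth. The 3 groups were in this order without overlap, but the change with metformin against starvation was 0.22 and missed the test (SE 0.06, limma adjusted p = 0.0933). PDK1, a target of hypoxia-inducible factors, had values of 9.05, 9.25 and 8.95 with metformin, 9.43, 9.47 and 9.50 under starvation and 9.32, 9.37 and 9.37 under normal growth. It was lowest with metformin and highest under starvation, with a change of -0.38 between them (SE 0.09, limma adjusted p = 0.0772). PDK2 and PDK3 differed by -0.07 and 0.13 and overlapped.

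In all, the arrays with metformin did not overlap those of starvation for 20 of the 34 genes, which is 58.8%, beside 30.9% of named genes and 25.2% of probe sets. Of the 34 genes 11 lay higher and 9 lower, beside 15.7% and 15.2% of named genes. The 15 genes at an unadjusted p under 0.05 are 44.1% of the 34, beside 23.6% of named genes.

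Starvation alone, the condition the study was built on, was set against normal growth to ask what the loss of serum does. The supplement with insulin was withdrawn with the serum, and the parts of each cannot be told apart. Of the 34 genes 0 rose or fell in limma, where 0.150% of probe sets and 0.228% of named genes passed, and Student's t-test with the same adjustment also called 0. At an unadjusted p under 0.05 there were 7 genes in limma, SLC2A1, LDHA, ENO2, PFKP, TIGAR, HK1 and PDK1, which is 20.6%, beside 9.88% of named genes. Groups did not overlap for 9 genes, which is 26.5%, beside 16.5% of named genes and 13.0% of probe sets, with 4 higher and 5 lower, beside 6.86% and 9.62% of named genes. The values of SLC2A1 and LDHA stood farthest from normal growth relative to their SE. TIGAR had values of 7.84, 7.53 and 7.82 under starvation and 8.04, 7.94 and 8.06 under normal growth, a difference of -0.28 (SE 0.10, limma adjusted p = 0.498). ENO2 differed by 0.18 (adjusted p = 0.393), PFKP by -0.16 (adjusted p = 0.441), HK1 by -0.13 (adjusted p = 0.585) and PDK1 by 0.11 (adjusted p = 0.59). Of the genes followed in every comparison, HK2 differed by 0.09 (SE 0.10, adjusted p = 0.872), PKM by -0.06 (SE 0.05, adjusted p = 0.821) and PDK4 by 0.08 (SE 0.04, adjusted p = 0.733). PFKFB3 and GAPDH differed by -0.01 (95% interval -0.11 to 0.10) and 0.00 (95% interval -0.11 to 0.11). The median over the 34 genes was 0.0035, beside -0.00072 over all named genes.

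**Figure D3:**
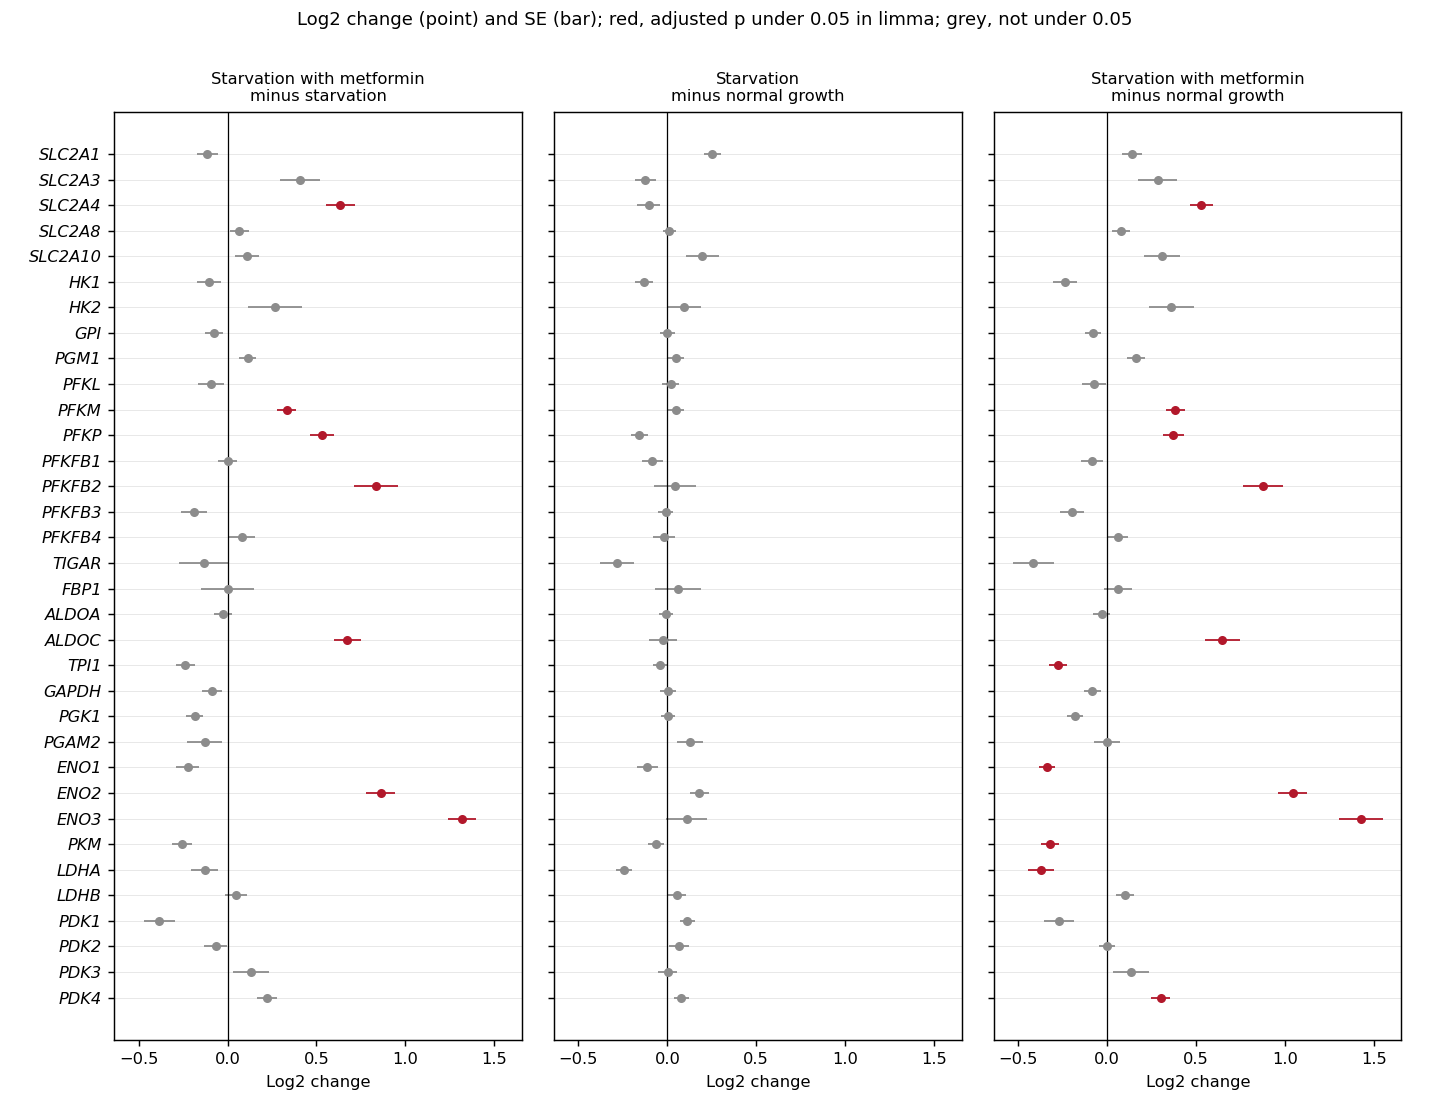
Log2 changes of the 34 measured genes (points, with SE as bars) for starvation with metformin minus starvation, starvation minus normal growth, and starvation with metformin minus normal growth, with red for an adjusted p under 0.05 in limma. The left panel has 7 red points, all above 0, the middle panel has 0, and the right panel has 8 above and 4 below 0.

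Starvation with metformin was also set against normal growth, which adds the withdrawal of serum to the drug and, if the medium was that of starvation, of the insulin, transferrin and selenium supplement as well. Here 8 genes rose and 4 fell, 35.3% of the 34, beside 12.5% of named genes and 9.07% of probe sets, and 6.15% of named genes rose and 6.36% fell. The 8 were the 7 genes above and PDK4. ENO3 rose by 1.43 (SE 0.12, limma adjusted p = 0.00567) and ENO2 by 1.04 (SE 0.08, limma adjusted p = 0.00532), both over 2-fold. PFKFB2 rose by 0.88 (SE 0.11), ALDOC by 0.65 (SE 0.10), SLC2A4 by 0.53 (SE 0.06), PFKM by 0.38 (SE 0.05), PFKP by 0.37 (SE 0.06) and PDK4 by 0.30 (SE 0.05), with limma adjusted p values of 0.0106 to 0.0254. The 4 that fell were LDHA (log2 change -0.37, SE 0.07, adjusted p = 0.0343), ENO1 (-0.34, SE 0.04, adjusted p = 0.0131), PKM (-0.32, SE 0.05, adjusted p = 0.0199) and TPI1 (-0.28, SE 0.05, adjusted p = 0.0296). The dimmer probe set of TPI1 gave -0.38 (adjusted p = 0.0237), and the probe sets shared by PGAM1 and PGAM4 gave -0.25 to -0.28 (adjusted p = 0.0357 to 0.0609).

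The other genes followed in every comparison did not pass against normal growth. SLC2A1 differed by 0.14 (SE 0.06, adjusted p = 0.229), HK2 by 0.36 (SE 0.13, adjusted p = 0.159), PFKFB3 by -0.20 (SE 0.07, adjusted p = 0.151) and GAPDH by -0.08 (SE 0.05, adjusted p = 0.37). TIGAR differed by -0.42 (SE 0.12, adjusted p = 0.088). The groups did not overlap for 27 of the 34 genes, which is 79.4%, beside 35.8% of named genes and 28.4% of probe sets. Of the 34 genes 15 lay higher and 12 lower, beside 16.8% and 19.0% of named genes, and 21 had an unadjusted p under 0.05, beside 28.5% of named genes. The median over the 34 genes was 0.06, beside -0.02 over all named genes. Without any one array of normal growth the count was 2, ENO2 and ENO3, and without metformin array A, B or C it was 9, 13 or 11.

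Genes around the pathway were read from lists of related function, whose counts stand beside the 3.14% of named genes that rose and the 2.89% that fell with metformin against starvation. Of 27 measured other isozymes and sugar transporters, 2 rose and 1 fell with metformin against starvation. The lactate dehydrogenase for D-lactate, LDHD, rose by 0.35 (adjusted p = 0.0349), PGM2L1, which makes glucose 1,6-bisphosphate, by 0.73 (adjusted p = 0.0331), and the phosphopentomutase PGM2 fell by 0.35 (adjusted p = 0.043). PGM2L1 also differed by -0.76 for starvation against normal growth (adjusted p = 0.125), and the arrays with metformin overlapped those of normal growth. Of 20 genes of pyruvate entry into mitochondria, 1 rose, PC, the pyruvate carboxylase (0.43, adjusted p = 0.0268), and 1 fell, SLC25A13, an aspartate-glutamate carrier of the malate-aspartate shuttle (-0.63, adjusted p = 0.0339). Of 21 genes of gluconeogenesis and glycogen, 2 rose and 0 fell, PCK2, the mitochondrial phosphoenolpyruvate carboxykinase (1.08, adjusted p = 0.0235), and GYG1, which primes glycogen (0.53, adjusted p = 0.0174).

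Of 23 regulators of glucose use, MXI1, an antagonist of MYC, rose by 0.50 (adjusted p = 0.024), and MYC, a transcription factor that drives glycolytic genes in many tumours, fell by 0.77 (adjusted p = 0.0183). HIF1A, the inducible subunit of the hypoxia factor, differed by 0.06 and did not pass. Of 19 hypoxia response genes outside glycolysis, 1 rose, P4HA2, a collagen prolyl hydroxylase (0.75, adjusted p = 0.0165), and the median of the list was 0.16. Against normal growth, 5 of these 19 rose, NDRG1, P4HA2, P4HA1, ERO1A and FAM162A, by 0.25 to 0.68, and 1 fell, CA12, by 0.38, beside 6.15% of named genes that rose and 6.36% that fell. Of 9 reference genes 0 passed limma's adjusted test with metformin against starvation, where 3 had an unadjusted p under 0.05, beside 23.6% of named genes. Against normal growth 1 of the 9 rose with metformin, B2M, the light chain of class I histocompatibility molecules (0.30, adjusted p = 0.047). For starvation against normal growth, 0 genes of these 6 lists passed limma's adjusted test, with 1 to 4 in each at an unadjusted p under 0.05. In that comparison 0.228% of named genes passed the adjusted test and 9.88% had an unadjusted p under 0.05.

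**Figure D4:**
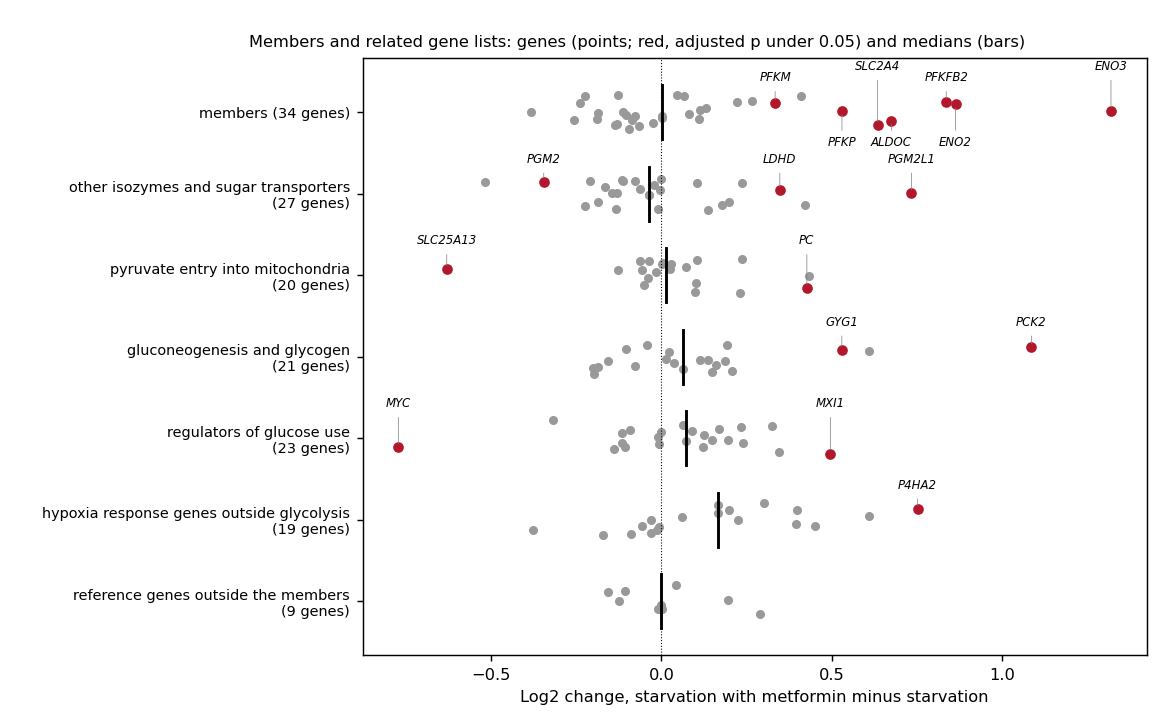
Log2 change with metformin against starvation for the 34 genes and for 6 related lists (rows, 1 point a gene), with red for an adjusted p under 0.05 in limma and a black bar at each list's median. The 34 genes have 7 red points, all to the right of 0, and no other list, of 9 to 27 genes, has more than 3. Of named genes 6.03% passed, and all lists were chosen with earlier results of these data known.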

How the data were processed

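Total RNA of NCI-H295R cells was hybridised to GeneChip Human Gene 1.0 ST arrays, 3 in each of 3 groups. The authors deposited log2 expression values for 33297 probe sets, made by RMA per the submitters' processing notes, which name Affymetrix Expression Console, RMA and limma (versions: not given in the sources used here). The method subtracts background, brings the arrays to one distribution of probe signals and fits 1 value per probe set and array, and it tends to compress changes of dim probe sets. The values were used as deposited. The number of arrays, 3 per group, limits the precision.

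Of the probe sets 19460 carry 1 gene symbol in the platform annotation, 1754 carry more and 12083 carry none. Only the first kind is named, by the brightest probe set of a gene over all arrays. The Entrez identifiers of all 34 measured members led to the same symbol in RefSeq. TPI1 had 2 probe sets.

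Each comparison used its own 6 arrays in limma 3.58.1 (lmFit, then eBayes, under R 4.3.3), without a block, with Benjamini-Hochberg adjustment over all probe sets and a threshold of 0.05. Replicate letters are shared by the groups, but no source says that a letter marks a shared experiment. Intervals are at 95%. The script was tested on simulated data. The 37 genes, the related lists and the markers were chosen with earlier results of these data known, and 2 further lists of muscle and neuronal genes were added after seeing the values. Full statistics were given for members that passed and for SLC2A1, HK2, PFKFB3, GAPDH, PKM, LDHA and PDK4. Alternatives were a fit of all 9 arrays, 2 further normalizations, a filter on dim probe sets (the lowest 40% by mean), averaged probe sets per gene, eBayes with trend and robust options, Student's t-test, a replicate block and leaving out each array. The paper names Student's t-test in its general statistics, while for the arrays it names R and Bioconductor packages. Promoter windows came from RefSeq (GRCh38.p14). PGAM1 was read on shared probe sets only, and SLC16A1 and SLC16A3 were not analysed here.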

Additional observations from a re-analysis of the deposited data

How the results depend on the processing

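With metformin against starvation, the 7 members called in limma became 14 in a fit of all 9 arrays (9 higher and 5 lower), 11 without dim probe sets (8 and 3) and 13 with trend and robust options (8 and 5), and 0 with the replicate block. Student's t-test called 7 as well, of which 6 were higher and 1 lower, but not the same 7, as SLC2A4 and PFKFB2 did not pass it. The count was 0 to 6 when each array was left out, and in 4 of these 6 fits, as with the block, no probe set of the whole array passed, while 14 to 17 members kept an unadjusted p under 0.05. For starvation with metformin against normal growth, the 12 called members became 0 with the replicate block and 2 to 13 with an array left out. Members called for starvation against normal growth stayed at 0 in every alternative. In the main fits 4.28% of probe sets passed with metformin against starvation and 9.07% with metformin against normal growth. The shares of all probe sets under the alternatives are not set beside these counts, so a changed count is not a result about these genes. The correlation of same-letter arrays' deviations from their group means was -0.249 to 0.294 with metformin against starvation, 0.024 to 0.134 for starvation against normal growth and -0.164 to 0.0098 with metformin against normal growth. Between arrays of different letters it was, in the same order, -0.383 to 0.44, -0.11 to 0.0395 and -0.108 to 0.182. No source says whether a letter marks a shared experiment, and the arrays were not treated as paired.

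Of 518 values of single members under alternatives, 413 stayed on their side of the threshold, 92 no longer passed it, 6 came to pass it and 7 changed sign. These 7 were differences of starvation against normal growth that never passed: PFKFB3 was 0.021 when quantile normalized again and -0.023 to 0.013 with an array left out (0.0012 without normal growth B), HK2 was -0.0044 to 0.16, and GAPDH was -0.021 to 0.028 (-0.00070 without starvation C and -0.0039 without normal growth C). The cause of these changes was not tested.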

Other observations

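ENO3, SLC2A4 and PFKM are known best from muscle, and ENO2 and ALDOC from nerve, so 2 further lists were read after these values had been seen. Of 12 skeletal muscle genes (CKM, ACTA1, MYH1, MYH2, MYH7, TNNT1, TNNT3, MYOD1, MYOG, MB, DES and TTN), 0 passed limma's adjusted test with metformin against starvation. At an unadjusted p under 0.05 there were 0, beside 23.6% of named genes. Only 7 of the 12 averaged above the lowest array median, and a rise on the dim probe sets of the rest could be missed. The median log2 change of the 12 was -0.07, the range -0.14 to 0.19. MB, the oxygen store of muscle, was the highest, with means of 9.02 with metformin, 8.83 under starvation and 8.68 under normal growth. Of 9 measured neuronal genes (RBFOX3, SYP, MAP2, SNAP25, NEFL, SYT1, GAP43, ELAVL4 and STMN2), 0 rose and 1 fell, SYP, a protein of synaptic vesicles, by 0.88 (adjusted p = 0.0145). Of named genes 3.14% rose and 2.89% fell, and 5 of the 9 averaged above the lowest array median. Of the 9 neuronal genes 3 had an unadjusted p under 0.05 in limma, beside 23.6% of named genes. Against normal growth, 2 of the 9 rose with metformin, NEFL, a neurofilament subunit (0.46, adjusted p = 0.0122), and GAP43, a growth cone protein (0.51, adjusted p = 0.0309), and SYP fell by 1.06 (adjusted p = 0.0053). In that comparison 6.15% of named genes rose and 6.36% fell.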
